A study of Mus musculus with 207 samples.

Results

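Nupr1, also known as p8 and numbered 56312 in NCBI Gene, encodes a small stress-induced nuclear protein. It was chosen by its measured on/off pattern in single islet cells, where some cells held large amounts and others none, so its levels by age and by cell are given here as a description, with no test. It is 1 of the 44448 rows of the deposited table, and its row was read in all 207 cells. The cells came from pancreatic islets of male mice and are called beta cells, the insulin-making cells of the islet, in the labels. The old group holds 69 cells of mice aged 26 months and the young group 138 cells of mice aged 3 months. The labels give no treatment, strain or allele for either group and name no animal, so each age counts as 1 sample, cells are not replicates, and no comparison of the ages has a replicate check. Each cell was caught on a microfluidic chip and its RNA copied and amplified there. Values are TPM, a unit scaled for transcript length and for the cell's total, which keeps no read depth.

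NUPR1 is a chromatin-binding protein without a fixed fold, first found in rat pancreas during pancreatitis, when acinar cells switch its gene on. In the integrated stress response, kinases that sense unfolded protein, amino acid shortage or other stress phosphorylate the translation factor eIF2α, most protein synthesis slows and the transcription factor ATF4 is made. ATF4 then raises genes for amino acid transport, amino acid and folate enzymes and tRNA charging, together with Ddit3, which encodes the stress factor CHOP. Nupr1 is a known ATF4 target, and work in tumour cells placed Ddit3 and Trib3 downstream of it.

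In RefSeq on GRCm38.p6, Nupr1 occupies chr7:126623246-126625470 on the minus strand. The GENCODE M21 transcript Nupr1-201 has 3 exons, 829 spliced bases and a reading frame of 80 codons, and it starts 206 bases before the RefSeq start. RefSeq promoters were searched for TGATGNAA, the core of the element that ATF4 binds with C/EBP partners, on both strands over the 250 bases before the RefSeq start. This motif was picked after the Nupr1 promoter and the counts of a longer form had been seen. Nupr1 held 1 match, whose first base lies 110 bases before the RefSeq start, inside the 5′ untranslated part of exon 1 in the GENCODE model. The match in Nupr1 is shown beside matches of 5 genes of the integrated stress response whose values are given below, with the match in capitals, in the direction of each gene.
Nupr1: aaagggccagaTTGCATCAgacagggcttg
Chac1: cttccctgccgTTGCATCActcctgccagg
Vldlr: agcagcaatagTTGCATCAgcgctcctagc
Tars: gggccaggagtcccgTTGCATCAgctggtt
Atf3: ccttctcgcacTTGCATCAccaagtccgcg
Asns: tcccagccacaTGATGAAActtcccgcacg
The first 5 of these lines hold the same 8 letters, which are the motif read on the other strand. The lines are a selection, so this likeness partly reflects the choice. Aars, Pck2 and Gars, whose values are also given below, had matches that are not shown. Aars held the same 8 letters, and Pck2 and Gars another letter at N. The windows are chr7:126625562-126625591 on the minus strand for Nupr1, chr2:119351038-119351067 on the plus strand for Chac1, chr19:27216809-27216838 on the plus strand for Vldlr, chr15:11399659-11399688 on the minus strand for Tars, chr1:191183425-191183454 on the minus strand for Atf3 and chr6:7693214-7693243 on the minus strand for Asns. The motif was in 3.45% of 32851 RefSeq promoters. Counted by gene it was in 3.91% of 27025 genes, and in 11 of the 33 listed targets of the response that had a promoter in the table. Those targets were listed because published work ties them to ATF4, so the count describes the list. The longer form TGATGNAAT, which overlaps the shorter one, was in 0.816% of promoters and 0.910% of genes, in Nupr1 and in 3 of the 33. A match is a description of letters and not a measured binding site.

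All 207 cells held Ins1 and Ins2, and both together took 15.7 to 78.7% of a cell's TPM. Between 1604 and 6654 genes reached TPM 1 in a cell. Along the cell numbers in the titles the cells fall into 7 stretches that differ in technical measures, 3 of old cells (139-158, 159-190 and 191-207) and 4 of young cells (1-39, 40-54, 55-86 and 87-138). The stretches were found in these data and are not batches named by the labels. Each stretch holds 1 age, so stretch and age cannot be told apart. A missed transcript and a true absence cannot be separated here, because the TPM values keep no depth. The share of cells with the transcript and the level in those cells are therefore given side by side, not as separate effects.

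Nupr1 was abundant on average yet missing from many cells. Its mean over all cells was 444 TPM, the 72nd highest of the table, with a coefficient of variation of 2.25. It reached TPM 1, called detected here, in 137 of 207 cells (66.2%), was listed at 0 in 56 and lay between 0 and 1 in 14. Of 77 genes with a mean within 1.5-fold of it, none was detected in a smaller share of cells and 2 had a higher coefficient of variation, while their medians were 99.0% of cells and 0.995. Nupr1 was chosen for this on/off pattern in these same cells, so its place among them restates the choice. The gene next to it in share was TrnE, a mitochondrial tRNA gene, at 67.6%. The summed Nupr1 signal lay in few cells: 12 cells held 50.4% of it and the highest 20 held 64.9%.

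**Figure D1:**
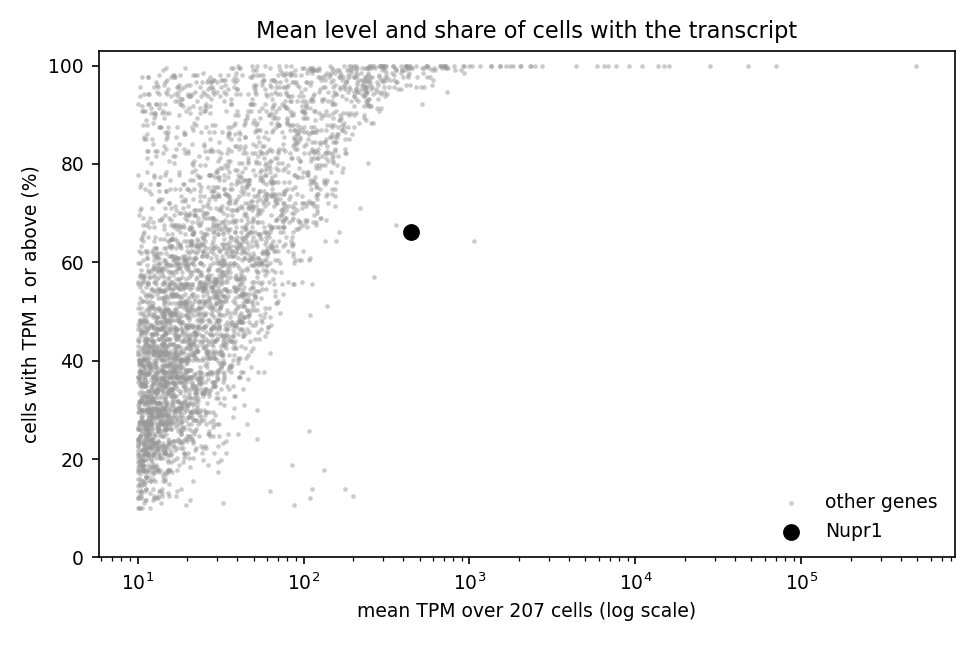
Mean TPM over 207 cells (x axis, log scale) against the percentage of cells with TPM 1 or above (y axis) for each gene with a mean of at least 10 TPM that was detected in at least 10% of cells. Nupr1, the black point at 444 TPM and 66.2%, lies below the genes of like mean level, whose median is 99.0%. It was chosen for its on/off pattern in these cells, so its place restates the choice.

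The highest single value was 6942 TPM in old cell 191, where Nupr1 was the 14th most abundant gene. Old cell 182 had 5192 TPM and young cell 1 had 4633 TPM, and Nupr1 ranked 12th in both. Such cells were present at both ages, since 16 of 69 old cells (23.2%) and 14 of 138 young cells (10.1%) had 1000 TPM or more. Values near the thresholds used below ran without a gap. The cells nearest to TPM 1 had 1.04 and 0.997 TPM, those nearest to TPM 10 had 10.2 and 9.92 TPM, and those nearest to TPM 100 had 100.3 and 92.3 TPM.

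Nupr1 was found in more of the old cells and at a higher level. It was detected in 59 of 69 old cells (85.5%, 95% Clopper-Pearson interval 75.0 to 92.8%) and in 78 of 138 young cells (56.5%, 47.8 to 64.9%), where the intervals cover counting error only. TPM 10 was reached by 50 old cells (72.5%, 60.4 to 82.5%) and 55 young cells (39.9%, 31.6 to 48.5%). TPM 100 was reached by 39 old cells (56.5%, 44.0 to 68.4%) and 38 young cells (27.5%, 20.3 to 35.8%). The share was higher in old cells at each of these 3 levels. The lowest, median and highest values were 0, 233 and 6942 TPM in old cells and 0, 1.69 and 4633 TPM in young cells, so the ranges overlapped almost wholly while the medians lay far apart. Among cells that had the transcript, the median was 324 TPM in old cells (quartiles 57.9 and 1069) and 75.0 TPM in young cells (quartiles 4.04 and 508). The mean was 689 ± 1213 TPM in old cells and 321 ± 846 TPM in young cells (SD between cells), and the SD exceeded the mean at both ages.

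The log2 ratio of the means, old over young with 1 TPM added to each, was 1.10. Over the 4636 genes with a mean of 10 TPM or more at either age that were detected in at least 10% of cells, the median log2 ratio was −0.08 and the central 90% ran from −1.28 to 1.04. Nupr1 had the 204th highest ratio. By a fold of at least 1.5, 13.4% of these genes were higher in old cells and 20.3% were lower. In the share of cells with the transcript, old minus young, Nupr1 stood further out. Its difference of 29.0 percentage points was the 4th highest of the 4636, whose median was −3.62 points. Nupr1 was chosen with these same values by age in view, so its place is a description only. Taken as mean log2(TPM + 1), a scale that gives single high cells less weight, Nupr1 averaged 6.51 in old cells and 3.51 in young cells, a difference of 3.00.

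**Figure D2:**
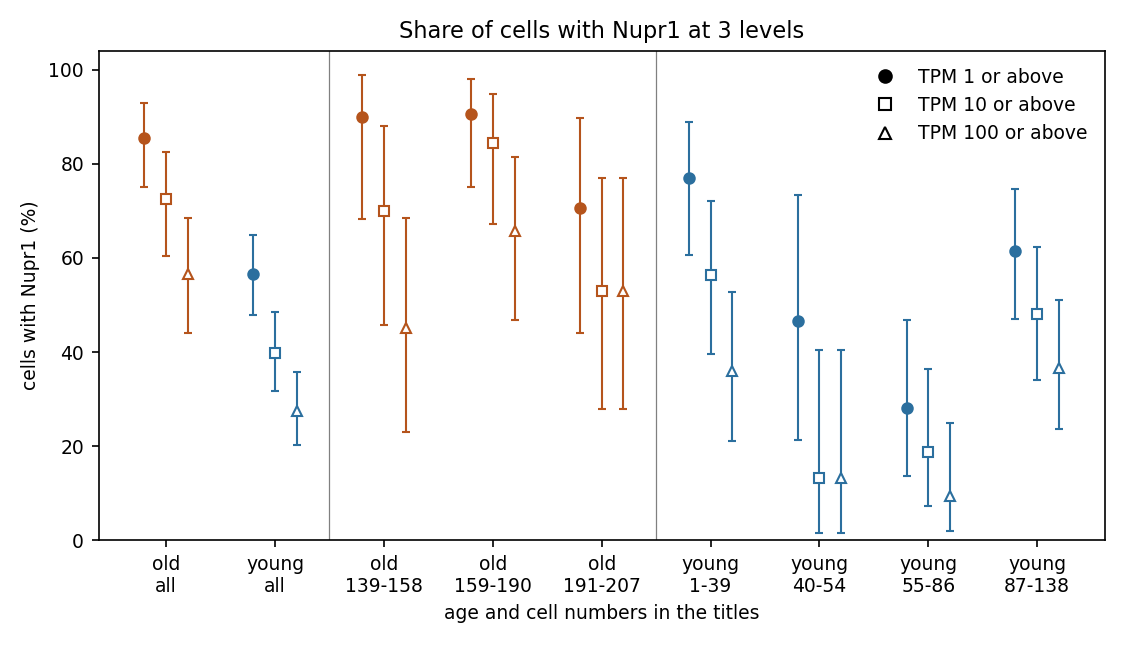
Percentage of cells with Nupr1 at TPM 1, 10 or 100 or above (y axis) in all old cells, all young cells and the 7 stretches of cell numbers, old left of young in each block. Bars are 95% Clopper-Pearson intervals and cover counting error only. The old stretches lie between 70.6 and 90.6% at TPM 1 and the young ones between 28.1 and 76.9%.

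The stretches of the ages overlapped. Among old cells, Nupr1 was detected in 18 of 20 cells of stretch 139-158 (90.0%), 29 of 32 of stretch 159-190 (90.6%) and 12 of 17 of stretch 191-207 (70.6%). Among young cells it was detected in 30 of 39 cells of stretch 1-39 (76.9%), 7 of 15 of stretch 40-54 (46.7%), 9 of 32 of stretch 55-86 (28.1%) and 32 of 52 of stretch 87-138 (61.5%). Young stretch 1-39 therefore had a higher share than old stretch 191-207. In the order of the shares no neighbouring stretches had separate intervals.

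The levels within stretches showed where the means came from. Old stretch 159-190 had lowest, median and highest values of 0, 527 and 5192 TPM, and 27 of its 32 cells reached TPM 10. Old stretch 139-158 had 0, 53.9 and 1462 TPM, with no cell among the 10 highest of the table. Old stretch 191-207 had 0, 113 and 6942 TPM, and its 1 highest cell held 54.7% of the stretch's Nupr1, so that its mean was 746 TPM with that cell and 359 TPM without it. In all 3 old stretches the median was at least 50 TPM, a level that no young stretch reached.

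Young stretch 1-39 had lowest, median and highest values of 0, 15.9 and 4633 TPM. Young stretch 40-54, whose cells had the fewest detected genes (median 2320), split most sharply: cells 46 and 48 had 4268 and 3993 TPM, and none of the other 13 cells reached TPM 10. Young stretch 55-86 had 22 of 32 cells at 0, a median of 0 and a highest value of 2507 TPM in 1 cell that held 62.9% of its Nupr1. Young stretch 87-138 had a median of 2.37 TPM, a highest value of 3302 TPM and 16 of 52 cells at 0. Detected genes did not follow the order of the Nupr1 shares, since stretches 55-86 and 159-190, the lowest and highest in share, had medians of 4226 and 3633.5 detected genes. The median share of Ins1 and Ins2 in TPM was highest where the Nupr1 share was lowest, 59.3% in 55-86 and 67.9% in 40-54. In the other stretches it lay between 49.7 and 53.5%. Whether any of these measures bears on the Nupr1 shares was not tested.

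By mean, the stretches ran from 875 ± 1167 TPM in 159-190 through 746 ± 1757 in 191-207, 552 ± 1454 in 40-54, 464 ± 1029 in 1-39, 343 ± 504 in 139-158 and 267 ± 601 in 87-138 to 124 ± 470 TPM in 55-86 (SD between cells). The SD exceeded the mean in each of the 7 stretches and every step between neighbours in that order, so the means do not rank the stretches beyond their spread. Mitochondrial rRNA and tRNA also differed between stretches, with medians from 0.161 to 1.81% of TPM, and the ages were compared within a low and a high set. The sets were not matched in it. In the low set the medians were 0.161% in old 159-190 and 0.294 and 0.362% in young 1-39 and 40-54. In the high set they were 1.81% in old 139-158 and 0.913 and 1.31% in young 55-86 and 87-138. Within the stretches low in it, 90.6% of old cells (159-190) and 68.5% of young cells (1-54) had Nupr1, with a log2 ratio of 0.84. Within the stretches high in it, 90.0% of old cells (139-158) and 48.8% of young cells (55-138) had Nupr1, with a log2 ratio of 0.68. These subsets were set after the data had been seen, and stretch 191-207 holds cells of both kinds and entered neither.

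**Figure D3:**
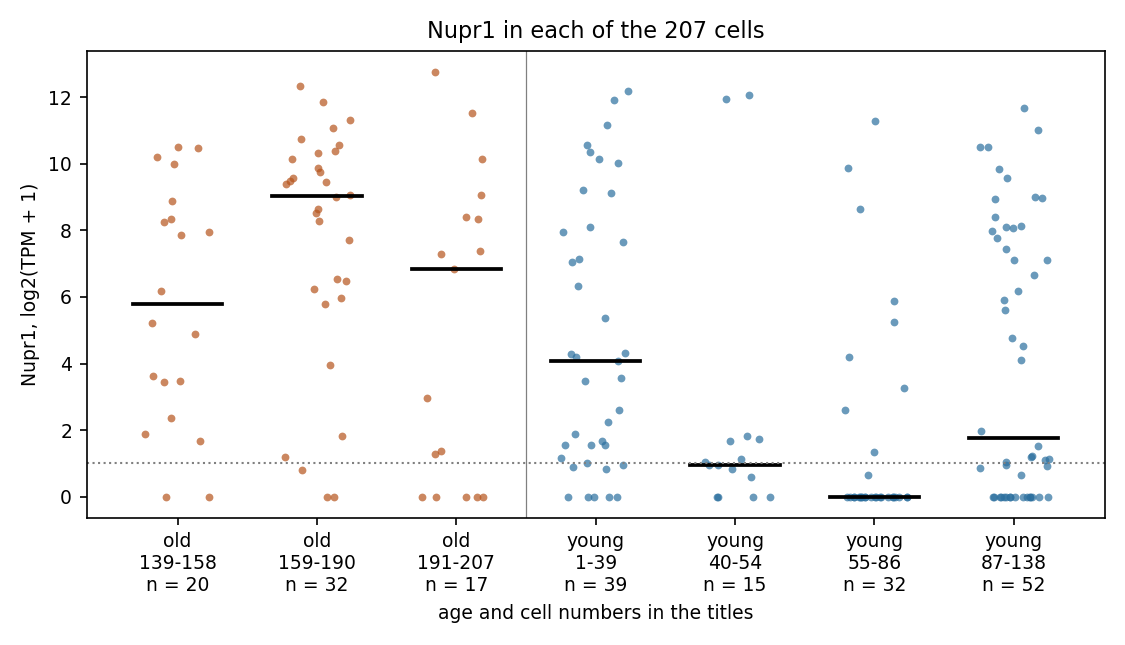
Nupr1 as log2(TPM + 1) (y axis) in each of the 207 cells, by age and stretch of cell numbers, old stretches on the left. Points are cells, bars are medians and the dotted line is TPM 1. Medians are 53.9, 527 and 113 TPM in the old stretches and 15.9, 0.938, 0 and 2.37 TPM in the young ones, and every stretch has cells at 0 and cells above 1000 TPM.

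Genes that varied with Nupr1 from cell to cell were ranked by a Spearman correlation taken within stretches, so that differences between stretches and ages do not enter. It was computed for the 4063 other genes with a mean of at least 10 TPM that were detected in at least 10% of cells. The labels name no animal or chip that cells share, and the values are sparse, so each rho is a description over 207 cells. All were weak. The median was 0.03, and no gene reached 0.3 in either direction. A rho of 0.2 or above was reached by 60 genes (1.48%), and −0.2 or below by 7 genes (0.172%).

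The highest named genes were of several kinds. Uqcrq, a subunit of respiratory complex III, had a rho of 0.28, and Ftl1, the ferritin light chain that stores iron, had 0.28. Slc3a2 (0.28), the heavy chain shared by several amino acid transporters, Mthfd2 (0.26), a mitochondrial folate enzyme, and Ddit3 (0.26) belong to the integrated stress response. Mt2 (0.25) encodes a metallothionein, a zinc-binding protein raised by metals and stress, and Nr1d2 (0.27) a nuclear receptor of the circadian clock. The others were Rcan2 (0.28), a regulator of calcineurin, the ribosomal protein gene Rpl38 (0.25), Pak1ip1 (0.25) and Gng10 (0.25), a G protein subunit. Of the genes given here, Ddit3, Pak1ip1 and Gng10 had a rho above 0 in 6 of 7 stretches and the others in all 7. Ferritin and ribosomal protein genes have near-identical pseudogenes in the table that may share their reads, so their values are less certain.

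The 6 lowest named genes included insulin itself. Ins2 had a rho of −0.21, with means of 475818 TPM in old cells and 495521 TPM in young cells. Chgb, a granin packed with insulin, had −0.23, and Scamp2, a secretory carrier membrane protein, and Slc17a9, a vesicular nucleotide transporter, had −0.21 and −0.20. Ssu72, a phosphatase of RNA polymerase II, had −0.22. Pomgnt1, a glycosylation enzyme detected in 30.4% of cells, was lowest at −0.30. The summed share of Ins1 and Ins2 had a rho of −0.23 with Nupr1 within stretches and −0.31 over all cells without stretches. Among the 137 cells with Nupr1 at TPM 1 or above, the rho of Ins2 was −0.05. TPM adds up to a fixed total in each cell, so insulin mRNA and all other transcripts trade off in this unit.

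Members of the integrated stress response stood on the positive side of the ranking. Of 40 listed targets 26 were measured, 7 of these reached a rho of 0.2 (against 1.48% of all genes), none reached −0.2 (against 0.172%), and 26 of 26 were above 0, as were 2591 of the 4063 genes. Their median rho was 0.15, against 0.03 over all genes. The list was drawn up with earlier results of these data known. With TPM recomputed without insulin and mitochondrial genes, 7 of 30 measured targets reached 0.2, 29 were above 0 and the median was 0.14.

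**Figure D4:**
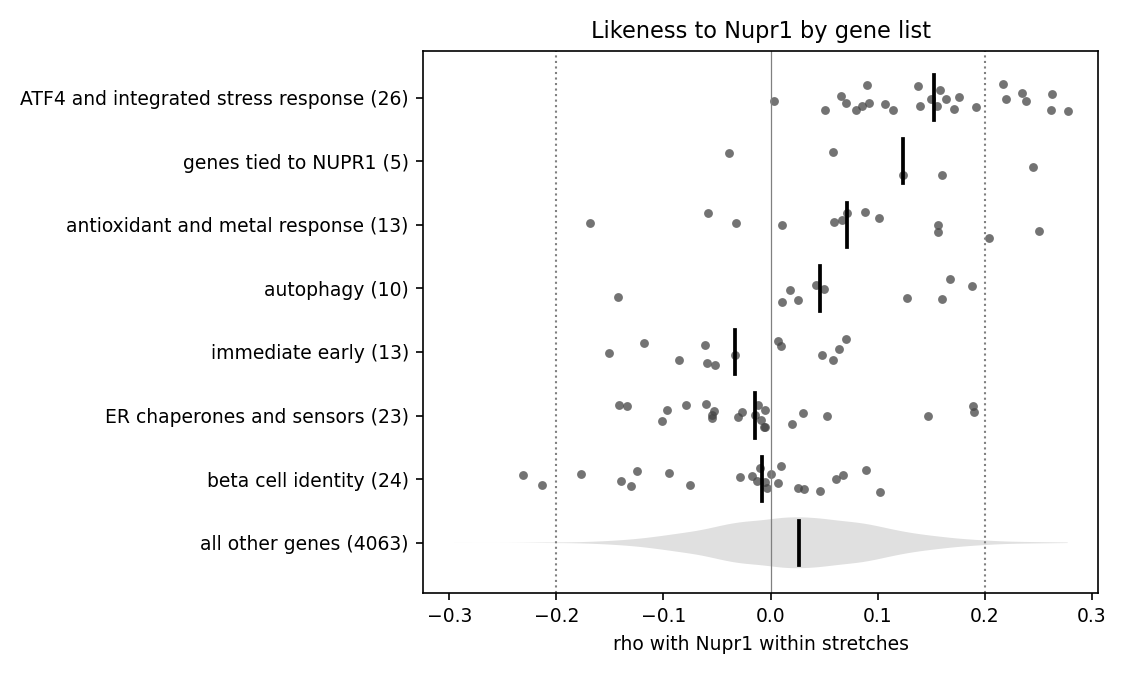
Within-stretch Spearman rho with Nupr1 (x axis) of each measured member of 7 gene lists (points, with the number measured in brackets) and of all 4063 other genes (grey shape). Black bars are medians and dotted lines mark −0.2 and 0.2. The targets of ATF4 and the integrated stress response lie to the right with a median of 0.15, and the endoplasmic reticulum chaperones and beta cell genes lie around 0.

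The 7 targets at 0.2 or above cover several arms of the response. Besides Slc3a2, Mthfd2 and Ddit3 they were Cebpg (0.24), a C/EBP factor that pairs with ATF4, Eif4ebp1 (0.24), a brake on translation, Asns (0.22), which makes asparagine, and Chac1 (0.22), which breaks down glutathione. Just below lay Slc7a5 (0.19), the light chain that pairs with Slc3a2, Vldlr (0.18), a lipoprotein receptor, and Atf4 itself (0.17), whose protein is set mainly at translation. Phgdh (0.16), Psat1 (0.14) and Psph (0.09), the enzymes of serine synthesis, followed. Among tRNA-charging enzymes Mars1 (0.16), Tars (0.16), Eprs (0.15) and Cars (0.14) were higher than Nars (0.09), Wars (0.09), Aars (0.08), Sars (0.07) and Gars (0.05). The remaining targets were Atf5 (0.11) and Pck2 (0.11), Atf3 (0.07) and Ppp1r15a (0.00), the phosphatase subunit that ends the response.

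The ages gave unlike values for some of these genes, in cells that they do not share. Ddit3 had a rho of 0.06 in old cells and 0.37 in young cells. Slc7a5 had 0.40 in old cells and 0.08 in young cells. Slc3a2 had 0.27 in old cells and 0.28 in young cells, and Mthfd2 had 0.29 in old cells and 0.25 in young cells. Whether any of these differ between ages was not tested.

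Counts of cells in which both transcripts were present restate the same values at a threshold and pool the stretches, so they are not separate support. For most targets they ran in the direction of rho. Slc3a2 was detected in 85 of 105 cells with Nupr1 at TPM 10 or above and in 65 of the 102 other cells. In cells with Nupr1 and in the others, the counts were 81 and 52 for Mthfd2, 91 and 68 for Asns and 70 and 37 for Slc7a5. For these 3 and for Slc3a2 the share was thus higher in cells with Nupr1. Ddit3 was closer, in 66 of 105 and 59 of 102 cells, and Atf3 lay the other way, in 21 and 28. Over the 26 measured targets, 25 had a higher share in cells with Nupr1, with a median difference of 11.0 percentage points, beside 2781 of 4063 genes and 2.86 points over all genes. Cells with more Nupr1 also had slightly more detected genes (rho 0.13), and the part of this in the shares was not tested.

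By age, the share with a target was higher in cells with Nupr1 at both ages for some targets and not for others. Asns was detected in 39 of 50 old cells with Nupr1 at TPM 10 or above and 9 of 19 other old cells, and in 52 of 55 young cells with Nupr1 and 59 of 83 other young cells. Mthfd2 was detected in 34 of 50 old cells with Nupr1 and 7 of 19 without that level, and in 47 of 55 young cells with Nupr1 and 45 of 83 without it. Slc7a5 was detected in 32 of 50 old cells with Nupr1 and 4 of 19 without that level, and in 38 of 55 young cells with Nupr1 and 33 of 83 without it. Ddit3 was detected in 23 of 50 old cells with Nupr1 and 9 of 19 without that level, which are nearly equal shares, and in 43 of 55 young cells with Nupr1 and 50 of 83 without it. Atf3 was detected in 13 of 55 young cells with Nupr1 and 26 of 83 without that level, the lower share being with Nupr1. Asns, Mthfd2 and Slc3a2 had the higher share in cells with Nupr1 in 7 of 7 stretches, Slc7a5 in 5 of 7 and Ddit3 in 4 of 7.

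Summed over all 40 targets, the response had a rho of 0.36 with Nupr1 within stretches, and 0.36 in old cells as in young cells. A sum over many sparse genes is not a like measure to a single gene. Sums of other lists had 0.22 for antioxidant and metal response genes, 0.20 for genes tied to NUPR1 and −0.20 for beta cell genes. Within 1 age a single gene could lie higher, such as Slc7a5 with 0.40 in old cells. With 1 target left out at a time the rho of the summed targets ran from 0.32, without Ddit3, to 0.37. By stretch it was 0.32 in 139-158, 0.19 in 159-190 and 0.75 in 191-207 among old cells, and 0.54 in 1-39, 0.20 in 40-54, 0.13 in 55-86 and 0.40 in 87-138 among young cells. All 7 were above 0, and the stretches of 15 to 52 cells give each value little precision.

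**Figure D5:**
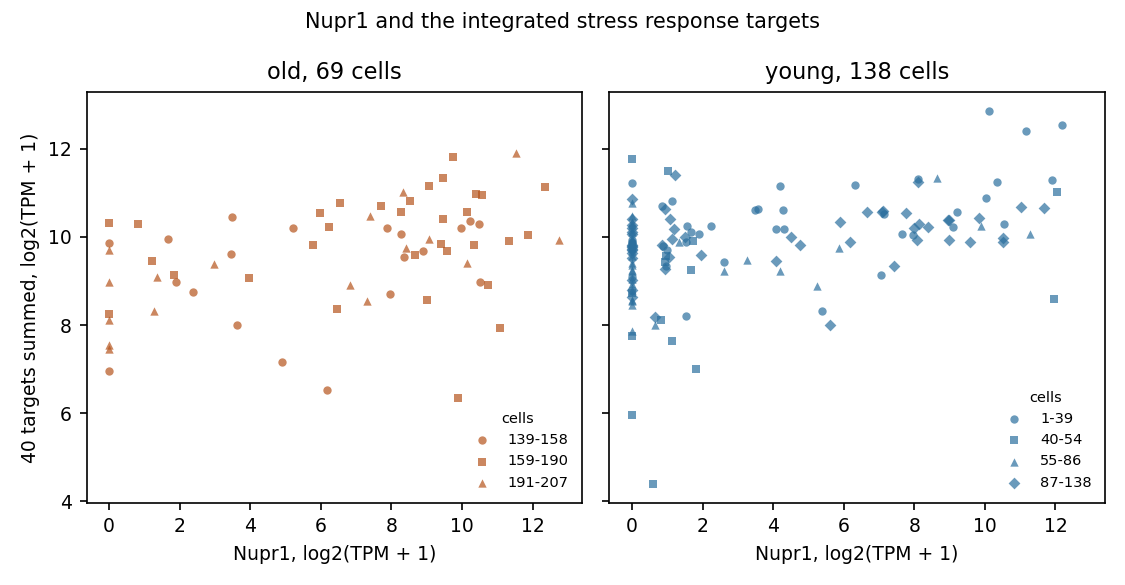
Summed TPM of the 40 targets of the integrated stress response as log2(TPM + 1) (y axis) against Nupr1 as log2(TPM + 1) (x axis), 1 point per cell, old cells on the left and young cells on the right, with a marker for each stretch of cell numbers. The sum tends to be higher in cells with more Nupr1 (rho 0.36 within stretches at either age), with wide scatter: cells without Nupr1 are found at high sums and young cell 48, with 3993 TPM of Nupr1, has a sum of 382 TPM.

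Single cells with the most Nupr1 differed in the targets they carried. Old cell 191 had 639 TPM of Mthfd2 and 99.7 TPM of Eif4ebp1, but 7.81 TPM of Asns and 0 of Chac1, and its summed targets of 973 TPM ranked 100th of 207. Old cell 182 had 580 TPM of Asns and 444 TPM of Slc3a2, but 0.142 TPM of Mthfd2 and 0 of Ddit3. Young cell 1 had 739 TPM of Atf4 and 250 TPM of Cebpg and ranked 2nd in the sum with 5944 TPM. Mthfd2 was thus high in the first of these cells and near 0 in the second.

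Between the ages the targets did not move as Nupr1 did. None of the 26 measured targets was at least 1.5-fold higher in old cells (against 13.4% of all genes) and 8 were at least 1.5-fold lower (against 20.3%), with a median log2 ratio of −0.21, beside −0.08 over all genes and 1.10 for Nupr1. The summed targets averaged 1014 ± 753 TPM in old cells (median 896) and 1186 ± 989 TPM in young cells (median 974; SD between cells). Among the 7 targets most like Nupr1, the log2 ratio ran from −0.83 for Chac1 to 0.34 for Cebpg. Atf4 averaged 149 ± 288 TPM in old cells and 189 ± 245 TPM in young cells, with a log2 ratio of −0.34. Ddit3 averaged 37.8 ± 93.0 TPM in old cells and 51.8 ± 97.0 TPM in young cells, and was detected in 46.4% of old cells and 67.4% of young cells, while Nupr1 was in 85.5% of old cells and 56.5% of young cells.

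The 8 targets that were lower in old cells were Cars (−2.66), Atf3 (−1.68), Ppp1r15a (−1.52), Vldlr (−1.18), Tars (−1.04), Psph (−1.0), Chac1 (−0.83) and Eprs (−0.67), given as log2 ratios. The lowest, Cars, had 2.33 ± 4.57 TPM in old cells and 20.0 ± 63.3 TPM in young cells. It was detected in 36.2% of old cells and 49.3% of young cells. Between the old stretch highest in mean Nupr1, 159-190, and the young stretch lowest in it, 55-86, the targets did not all run one way. The summed targets averaged 1233 ± 783 TPM in 159-190 and 836 ± 479 TPM in 55-86 (SD between cells), Asns 134 TPM in 159-190 and 68.0 TPM in 55-86, and Slc3a2 69.5 TPM in 159-190 and 38.9 TPM in 55-86, all in the direction of Nupr1. Ddit3 averaged 55.2 TPM in 159-190 and 84.2 TPM in 55-86, and Atf3 9.06 TPM in 159-190 and 48.2 TPM in 55-86, the other way.

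Other stress lists lay closer to the rest of the genes. None of 23 measured endoplasmic reticulum chaperones and sensors reached a rho of 0.2, and their median was −0.01. Within that list Sel1l (0.19) and Herpud1 (0.19), both of the degradation of misfolded proteins, and Xbp1 (0.15) were highest, and Edem2 (−0.14) was lowest. None of 4 measured genes of the eIF2α kinases and their partners did so, of which Eif2s1, which encodes eIF2α, was highest at 0.13 and Dele1 lowest at −0.06. Antioxidant and metal response genes had 2 of 13 members at 0.2 or above, the metallothioneins Mt2 (0.25) and Mt1 (0.20), and Txn1, a thioredoxin, at −0.17. These counts stand beside 1.48% of all genes.

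Of 18 genes that published work ties to NUPR1, 5 were measured and 1, the cell cycle inhibitor Cdkn1a (0.24), reached 0.2. It averaged 7.39 TPM in old cells and 12.8 TPM in young cells. Bnip3 (0.16), a mitophagy receptor, Trp53 (0.12), which encodes p53, and Cops5 (−0.04) were the other named members. None of 10 autophagy genes reached 0.2. Gabarap (0.19) was highest among them and Map1lc3b (−0.14), another autophagosome protein, lowest. None of 13 measured immediate early genes, which cell dissociation also raises, reached 0.2, and Egr1 had −0.15. Of 16 immediate early genes measured for age, 14 were at least 1.5-fold lower in old cells (against 20.3% of all genes) and none was at least 1.5-fold higher (against 13.4%).

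Genes of beta cell identity lay around 0 or below. None of 24 measured members reached 0.2 and 2, Ins2 and Chgb, reached −0.2 (against 0.172% of all genes). Ucn3, a marker of mature beta cells, had a rho of 0.05, with 798 TPM in old cells and 522 TPM in young cells. Iapp (0.09), the amylin gene, and Scg2 (0.10), a granin, lay on the positive side. Malat1, a nuclear noncoding RNA, had −0.10 within stretches and −0.29 over all cells without stretches.

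Acinar cells express Nupr1 under stress, and their markers were nearly missing. Of 16 acinar markers none was measured, 8 were never detected and the summed level had a median of 0 at both ages, with a highest value of 86.2 TPM in old cells and 32.8 TPM in young cells. The defining enzymes Cpb1, Pnlip, Ctrl and Cel were at 0 in every cell, and the summed level had a rho of 0.01 with Nupr1. Macrophage markers reached 18992 TPM in 1 old cell and 41538 TPM in 1 young cell, with medians of 1.27 TPM in old cells and 2.79 TPM in young cells and a rho of −0.02. The summed markers of alpha cells (0.03), delta cells (−0.03) and ductal cells (0.10) had weak values as well. The highest single alpha marker was Gc, at 0.19 within stretches, 0.31 in old cells and 0.14 in young cells. Glucagon (Gcg, 0.06) and somatostatin (Sst, 0.02) transcripts lay near 0 over both ages. By age, Gcg had −0.04 in old cells and 0.11 in young cells, and Sst −0.24 in old cells and 0.15 in young cells. Whether these differ between ages was not tested.

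The RefSeq noncoding RNA Gm39087 (chr7:126621769-126635179) spans Nupr1 and is in 0 rows of the table. The strand handling of the libraries is not given, so reads of the pair cannot be told apart. The nearest genes with rows were mostly silent. Il27 and Mir7059 were detected in no cell, Apobr in 1, Sult1a1 in 5 and Gm6939 in 3. Sgf29, a subunit of a histone acetylation complex on the same side of Nupr1 as Sult1a1 and Gm6939, was detected in 49 cells and had a rho of 0.17.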

How the data were processed

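The values are TPM, which the authors deposited as a single table of cells; its columns carry the sample titles and 0 were left unused. Per the labels' protocols, RNA was amplified with the SMARTer kit on a C1 chip and libraries were made with Nextera XT. The submitters' processing notes name the builds GRCm38 and mm10, CASAVA 1.8.2 and FastQC; which aligner, counter, annotation and strand setting were used is not given in the sources used here. Of 44448 rows (NCBI Gene numbers), 39725 had a RefSeq symbol. No cell was left out and no clusters or doublet calls were made. No p-value or SE was computed. Age ratios compare mean TPM with 1 added, which understates low genes. For rho, log2(TPM + 1) was ranked within stretches, centred, divided by stretch size and correlated over 207 cells. Nupr1, the stretches, the 19 gene lists and the motif were chosen with earlier results of these data known. Named genes are the 12 highest and 6 lowest rho with a proper symbol, examples from the 3 highest and 1 lowest of each list, measured targets of the integrated stress response, the 3 nearest genes on each side and 6 fixed genes; 1 gene that this rule named is not reported here. Python 3.11.15, numpy 2.4.6, pandas 2.3.3 and scipy 1.17.1 were used, and the ratios and rho were tested on simulated data.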

Additional observations from a re-analysis of the deposited data

How the results depend on the processing

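The old share stayed above the young one in all 15 alternatives, by 20.4 to 41.2 percentage points against 29.0. Both shares depend on the threshold: the old share was 72.5% at TPM 10 and 56.5% at TPM 100, and the young share 65.9% for any TPM above 0, 42.0% at TPM 5, 39.9% at TPM 10 and 27.5% at TPM 100. The young share was 68.5% within the stretches low in mitochondrial rRNA and tRNA. With 1 stretch left out at a time the old share ran from 81.1 to 90.4% and the young share from 48.5 to 65.1%, the highest without cells 55-86. The log2 ratio of old over young was positive in all 16 alternatives. It came to 3.00 when log2(TPM + 1) was averaged over cells and the ages subtracted, and otherwise lay between 0.68 and 1.37, and between 0.72 and 1.38 with 1 stretch left out.

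How many genes pass a rho of 0.2 depends on the setting. Against 60 genes at 0.2 or above and 7 at −0.2 or below, there were 108 and 34 over all cells without stretches, 349 and 110 in old cells and 130 and 40 in young cells, where fewer cells spread rho more widely. There were 33 and 16 with the number of detected genes regressed out. A mean filter of TPM 1 gave 99 and 19, and no mean filter gave 109 and 19, since more genes enter. At −0.2 or below there were 20 genes without insulin and mitochondrial genes and 55 among cells with Nupr1. With 1 stretch left out there were 58 to 107 and 5 to 16 genes: 106 at 0.2 or above without cells 159-190, 106 without cells 55-86 and 107 without cells 87-138, and at −0.2 or below 13 without cells 159-190, 191-207 or 1-39 and 16 without cells 87-138. With the cutoff alone changed, no gene reached 0.3 and none −0.3, so 0 targets of the integrated stress response did. Within 1 age some did, such as Slc7a5 with 0.40 in old cells and Ddit3 with 0.37 in young cells. The count of those targets at 0.2 or above was 5 to 10 in the other alternatives, against 7, and 6 to 9 with 1 stretch left out, and their median rho stayed between 0.13 and 0.17. None of the genes named as most or least like Nupr1 changed the sign of its rho, but several sizes moved: among cells with Nupr1 at TPM 1 or above, Ins2 had −0.05, Gng10 0.07 and Slc3a2 0.16, over all cells without stretches Ssu72 had −0.05 and Ddit3 0.14, and in old cells Ddit3 had 0.06, Pak1ip1 0.08 and Chgb −0.10. No paired analysis was possible because the numbers of the cells only name them and no result comes from a test. The low mitochondrial and high mitochondrial subsets and TPM 100 were chosen after seeing the data. TPM keeps no depth, so it is unknown which of the 56 cells at 0 lack the transcript.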

Other observations

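Ribosomal protein genes, a set picked after the ranking had been seen, made up 18 of the 60 genes with a rho of 0.2 or above. They numbered 147 with their pseudogenes among the 4063 genes, 12.2% of them reached 0.2, beside 1.48% of all genes, and 136 of the 147 were above 0, beside 2591 of the 4063 genes. Their median rho was 0.10, against 0.03 over all genes. Eef1a1 (0.23), an elongation factor, Eif3c (0.21), a subunit of an initiation factor, and Pabpc1 (0.21), the poly(A) binding protein, other genes of translation, were chosen after their values were seen. Many of these genes share near-identical sequence, so their values are not independent of each other. Vegfa, a growth factor gene that stress can raise, had a rho of 0.22 and was also singled out after its value was seen.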
